A study of Mus musculus with 2 samples.

Results

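The regions described here are the 500 parts of the genome whose accessibility was higher in Nfia/b/x-deficient than in control tanycytes by the widest margin that held in each of 4 subtypes, of 107377 regions measured (0.466%). For each region a difference D was taken between the libraries in these subtypes, alpha1, alpha2, beta1 and beta2 tanycytes. D is log2(CPM + 5) in the deficient minus the control library, and CPM is the number of cells of a class in which the region was detected per 1000000 detections of that class. Regions were ranked by their lowest D of the 4 subtypes, called the score, and the 500 with the highest score are the members. The choice uses the measured difference between the libraries, so higher levels in these 4 subtypes are not a finding. They are given as a description, without a test.

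Single-cell ATAC-seq was run on GFP-positive cells sorted out of dissected mediobasal hypothalamus at postnatal day 8. The control mice carried Rax-CreER and the reporter CAG-lsl-Sun1-GFP. The deficient mice carried both of these and floxed alleles of Nfia, Nfib and Nfix. In both genotypes the Cre recombinase is driven from Rax, a gene of tanycytes, and the GFP tag stays in their progeny, so the sort was aimed at tanycytes and cells derived from them. Whether each sorted cell descends from a tanycyte was not analysed here. The tag reports Cre action on the reporter, and recombination of the 3 Nfi genes in each cell was not analysed here. Each genotype had 1 library, so no test between genotypes was possible and no p-value is given. How many mice went into a library was not given in the sources used here. Of the libraries, the control held 8948 cells and 50973118 detections and the deficient library 13337 cells and 61678629, with medians of 4549.5 and 4042 detections per cell. The authors' annotation put each cell in 1 of 9 classes, and 204 cell barcodes occurred in both libraries. Regions are known by row number, which the files do not tie to positions or genes, so no sequence, gene or marker is given and class names rest on the annotation. All intervals are exact 95% intervals for counting error only, and variation between animals was not measured.

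ATAC-seq marks DNA that the Tn5 transposase can reach, mostly promoters and enhancers free of tightly packed nucleosomes. Tanycytes are radial glia-like cells of the wall of the third ventricle. Alpha tanycytes lie along the wall of the ventricle and beta tanycytes lie lower, with beta2 cells over the median eminence. The nuclear factor I proteins NFIA, NFIB and NFIX are transcription factors that bind promoters and enhancers, can open or close chromatin, and are known for driving glial differentiation in the developing nervous system.

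Most members differed modestly, and a few stood far above the rest. Scores ran from 0.43 to 1.88 with a median of 0.49, while the median over all regions was -0.13. Only 3 members reached a D of 1, a 2-fold difference on the log2(CPM + 5) scale, in all 4 subtypes, 97 reached 0.6 and 260 lay below 0.5. The 2 members just inside the threshold, regions 94645 and 87060, had scores of 0.4263 and 0.4261, and the 2 just outside, regions 33182 and 82497, both had 0.4260. The threshold therefore cuts through a continuum. For comparison, the mirrored rule for regions lower in all 4 subtypes, which gives the lost regions used further on, had 65 of its 500 regions at a difference of 1 or more.

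In control tanycytes the members were mostly regions of low to middle level, with few at either end of the range. This profile is a description, because the control level is part of D and the pseudocount shrinks D at low levels. Summed over the 4 subtypes, the median member had a control level of 4.47 CPM and the median of all regions 4.24 CPM. In the deficient library the median member had 10.6 CPM and the median region 4.46 CPM. Control levels of members ran from 0.909 to 24.2 CPM, deficient levels from 3.51 to 43.7 CPM. No member was among the 10% of regions with the highest control level. By control level, 52 members (10.4%) lay under 2 CPM, where 21.3% of all regions lay. From 2 to 5 CPM there were 224 (44.8%, against 34.3% of all regions), from 5 to 10 CPM 156 (31.2%, against 18.8%) and from 10 to 20 CPM 62 (12.4%, against 11.9%). At 20 CPM or more there were 6 (1.2%, against 13.7%). Without a pseudocount, the level summed over the 4 subtypes was higher by 1.49-fold to 20.03-fold, with a median of 2.25-fold, and 346 members passed 2-fold, as did 3.65% of all regions. Nothing is read from that count, because the rule used the same difference.

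Region 43464 had the highest score and came nearest to an on-off pattern. It was detected in 28 of 4306 control alpha2 tanycytes (0.650%) and in 672 of 4902 deficient ones (13.7%). Its level was 0.987 CPM in control and 25.8 CPM in deficient alpha2 cells. In alpha1 cells the levels were 2.17 and 21.4 CPM, in beta2 cells 1.83 and 26.3 CPM, and in beta1 cells the region was found in 11 of 1558 control and 217 of 2448 deficient cells. In every subtype the deficient interval lay above the control interval, and nothing is read from that, because the rule used the same differences. The rule did not use the other 5 classes, and there too the region was rarely detected in the control library. It was found in 4 of 882 control and 295 of 2520 deficient neurons, 1.06 and 30.0 CPM, in 2 of 304 and 32 of 274 oligodendrocyte precursor cells (OPCs), and in 3 of 325 and 31 of 223 astrocytes. Ependymal cells, which are ciliated and line the ventricle, had the lowest deficient level of the 9 classes, 14.5 CPM from 18 of 265 cells against 2 of 133 control cells.

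Regions 82126 and 43694 followed, with scores of 1.33 and 1.28. Region 82126 stood at 3.66 to 4.76 CPM in the 4 control subtypes and at 17.5 to 20.1 CPM in the 4 deficient ones, so its difference hardly varied between subtypes. Outside the rule it reached 19.2 CPM in deficient neurons against 2.92 in control neurons. In proliferating tanycytes it was detected in 98 of 1033 deficient cells and 0 of 63 control cells, which allows a share of up to 4.76% with 3 cells taken as the limit of a count of 0. Region 43694 varied more between subtypes, with deficient levels from 19.7 CPM in alpha1 to 28.7 CPM in beta2 cells and control levels from 3.77 to 5.20 CPM. It was found in 1 of 882 control neurons and 180 of 2520 deficient neurons, a log2 ratio of 6.10 (3.61 to 11.4). In OPCs and astrocytes its deficient levels were lower, 11.7 and 10.6 CPM.

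**Figure D1:**
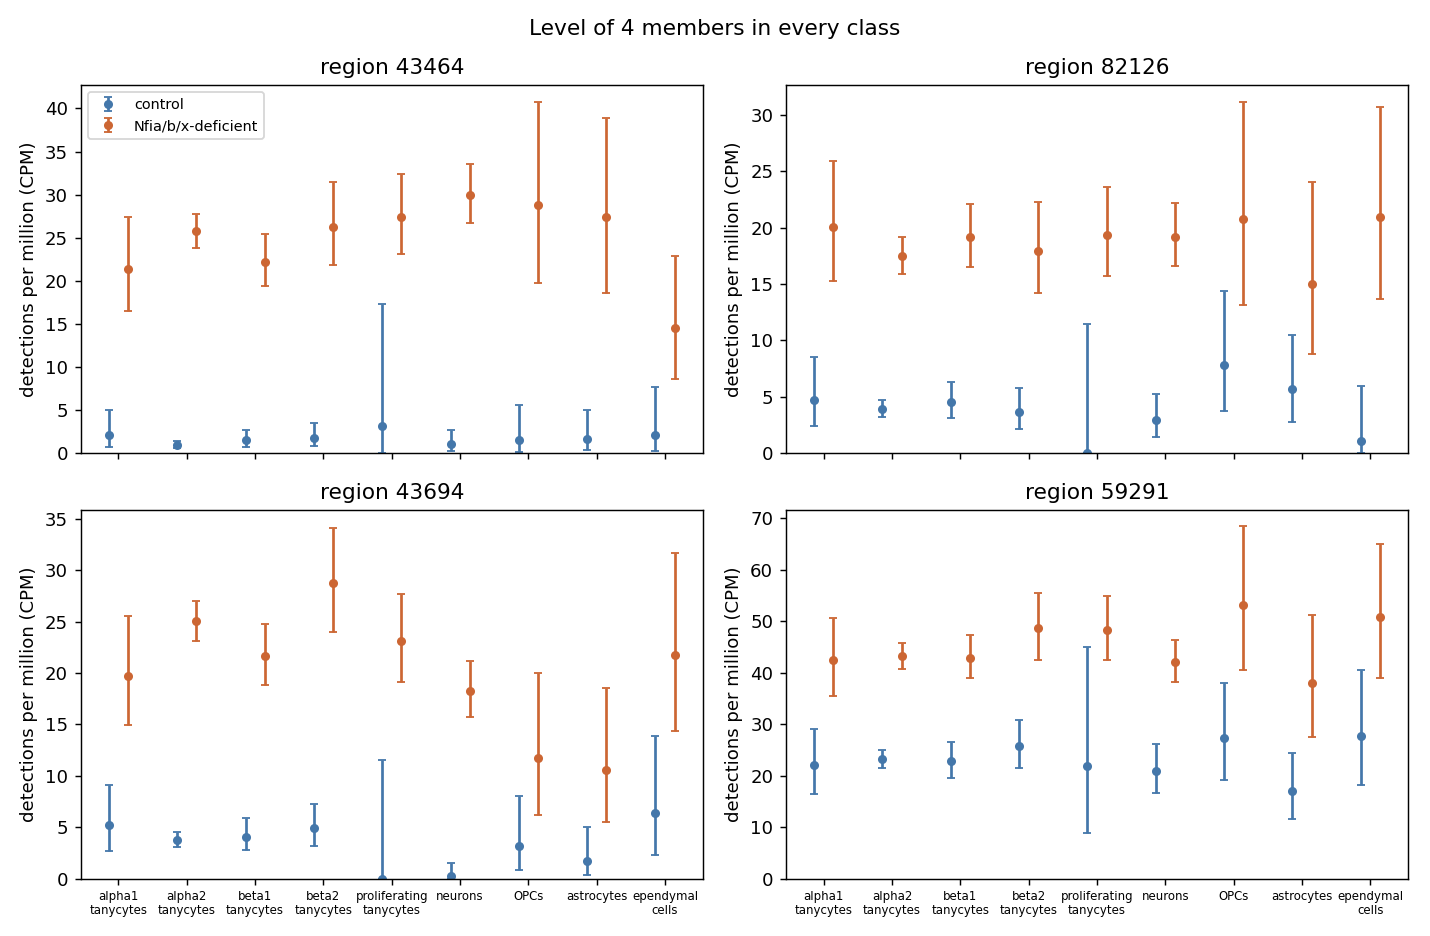
Level in CPM (vertical axis, linear) of 4 members in each of 9 classes (horizontal axis), blue for the control and orange for the deficient library; bars are exact 95% Poisson intervals. Region 43464 lies between 0.987 and 3.12 CPM in all 9 control classes and between 14.5 and 30.0 CPM in all 9 deficient classes, whereas region 59291 starts from 17.1 to 27.7 CPM in the control library.

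The next members by score started from different control levels. Region 88564 had 8.71 CPM in control and 23.6 CPM in deficient alpha2 cells. Region 96047 had 3.69 and 12.4 CPM in beta1 cells, and region 30668 had 3.88 and 15.9 CPM in alpha2 cells. Region 30668 showed little difference in 3 classes outside the rule: it was found in 5 control and 6 deficient OPCs, 2 and 2 astrocytes, and 3 and 5 ependymal cells, counts too low to show a difference. Region 96961 had its highest D in 2 classes outside the rule, at 2.39 CPM in control and 24.7 CPM in deficient neurons, and at 7.82 and 28.8 CPM in OPCs, against 2.08 and 10.6 CPM in alpha2 cells. Region 19692 had 1.86 and 12.6 CPM in neurons, and region 22083 had 5.58 and 22.5 CPM. Region 15092 was already open in control cells, with 16.9 CPM in alpha1 and 18.4 CPM in beta1 cells, and had 34.0 and 38.6 CPM in the deficient library. It also had the lowest D in ependymal cells (0.35) of the members with at least 50 detections there, at 22.4 and 29.8 CPM with overlapping intervals.

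The 5 members with the most detections had higher control levels than most members, and their differences were not alike. Region 90151 was detected in 9.73% of control and 23.7% of deficient alpha2 cells, and region 59291 in 15.3% and 23.0%. Region 59291 differed evenly over the classes: its D lay between 0.77 and 0.99 in all 9 classes, and it had the highest D in astrocytes (0.96) and in ependymal cells (0.77) of members with enough detections there. Region 32440 had 26.4 and 41.1 CPM in alpha2 cells, and regions 2918 and 100120 had 25.4 and 38.5, and 25.9 and 38.3 CPM. Region 90151 differed strongly in neurons, 17.5 against 54.9 CPM, and little in OPCs, 26.6 against 31.5 CPM.

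The 4 subtypes did not contribute alike to the choice. Beta2 cells had the lowest D, and so set the score, in 168 members, beta1 cells in 153, alpha2 cells in 95 and alpha1 cells in 84. Alpha1 cells, with 473 control and 669 deficient cells the smallest of the 4 subtypes, had the highest D in 234 members. Alpha1 cells had a median member D of 0.74, alpha2 cells 0.63, beta1 cells 0.61 and beta2 cells 0.59. Within a member, the gap between the highest and the lowest of the 4 values had a median of 0.30. The median member was seen in 9 control alpha1 cells and in 137 control alpha2 cells, so the counting error of D differs between subtypes. Its part in this gap was not tested.

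The difference was also present in a subtype that the choice did not use. When 500 regions were chosen from 3 subtypes and measured in the one left out, 488 had a D above 0 in alpha1 cells (54.8% of all regions did). In alpha2 cells 500 did (58.2%), in beta1 cells 498 (57.5%) and in beta2 cells 484 (55.8%). These lists share 264 to 400 regions with the members. Their summed level was higher by 1.99-fold in the left-out alpha1 cells, from 3.13 to 6.24 per 1000 detections, by 1.99-fold in alpha2, 1.94-fold in beta1 and 1.96-fold in beta2 cells. As log2 ratios these were 0.99 (0.96 to 1.03), 0.99 (0.98 to 1.00), 0.95 (0.93 to 0.98) and 0.97 (0.93 to 1.01), so the 4 left-out subtypes lay close together. The cells of all subtypes come from the same 2 libraries, so this is no replicate of the genotypes.

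The same held for cells left out of the choice. With regions chosen in odd-numbered cells, 269 of which were members, the log2 ratio of their summed level in even-numbered alpha1 cells was 0.95 (0.89 to 1.00). Even-numbered alpha2 cells gave 1.00 (0.98 to 1.01), beta1 cells 0.93 (0.90 to 0.96) and beta2 cells 0.91 (0.87 to 0.96). In the odd-numbered cells used for the choice it was 1.36, 1.05, 1.10 and 1.21. The ratios of the members themselves in all cells, 1.23, 1.07, 1.08 and 1.18, are above the left-out values, most in alpha1 and beta2 cells and least in alpha2 cells. The lists differ and the odd-numbered one was chosen from fewer cells, so this gap does not measure how far the choice raised the members' own ratios. The order of the subtypes by member ratio is not a result. Odd- and even-numbered cells come from the same 2 libraries.

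In the 5 classes that the rule did not use, most members were also higher in the deficient library. D was above 0 in 485 of 500 members in neurons (53.7% of all regions), in 463 in proliferating tanycytes (57.7%), in 402 in OPCs (51.0%), in 386 in astrocytes (51.0%) and in 402 in ependymal cells (52.0%). All 5 classes were above 0 in 234 members, as in 7.84% of all regions, and 187 more members had 4 of the 5. Since the rule fixes the other 4 classes, the same 234 members were higher in all 9 classes, as were 4.07% of all regions. A D of 0.5 or more in neurons was found in 323 members (6.96% of all regions). No member was at or below 0 in all 5. The single member above 0 in just 1 of them was region 31670, named here after its values were seen: its D was 0.38 in neurons, -0.60 in OPCs, -0.20 in proliferating tanycytes and -0.19 in ependymal cells. The classes share the libraries with the tanycytes, so what differs between the libraries as a whole enters every class.

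**Figure D2:**
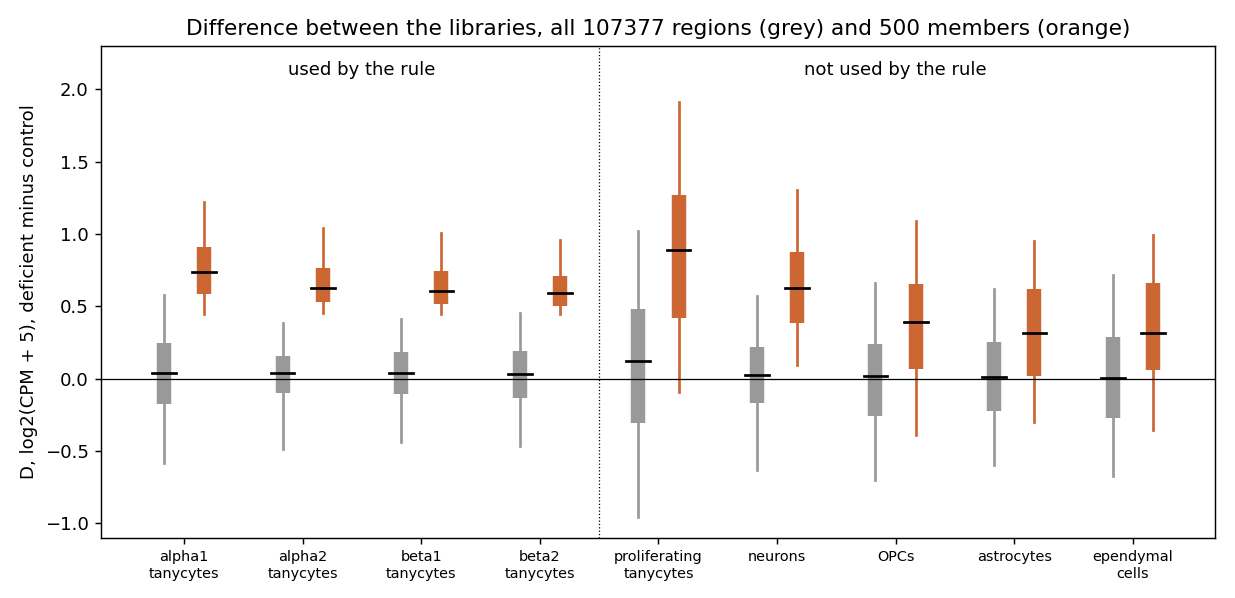
D, the log2(CPM + 5) difference between the deficient and the control library (vertical axis), in 9 classes (horizontal axis), for all 107377 regions (grey) and the 500 members (orange); thin lines run from the 5th to the 95th percentile, thick bars from the 25th to the 75th, and black ticks are medians. Left of the dotted line the rule sets the members' values; right of it the member medians run from 0.32 in astrocytes and ependymal cells to 0.89 in proliferating tanycytes.

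A D of 1 or more, meaning 2-fold on the log2(CPM + 5) scale, was reached by 211 members in proliferating tanycytes (5.44% of all regions), 89 in neurons (0.567%), 38 in OPCs (0.743%), 18 in astrocytes (0.440%) and 24 in ependymal cells (1.03%). Among the subtypes, which the rule favoured, alpha1 cells had 76 (0.309%), alpha2 cells 36 (0.0438%), beta1 cells 28 (0.0335%) and beta2 cells 22 (0.0447%). No member fell to a D of -1 or below in any class. Counts at this threshold moved with the pseudocount: with 1 CPM in place of 5, and members chosen anew, 274 members reached it in neurons, 172 in OPCs and 168 in astrocytes, and with 20 CPM 1, 2 and 1 did. The share of all regions at these pseudocounts was not calculated, so nothing more is read from these counts.

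The size of the difference separated the classes outside the rule. Proliferating tanycytes and neurons had the larger differences, and OPCs, astrocytes and ependymal cells lay lower. The 4 subtypes are not used as a yardstick here, because the rule favoured their differences. In neurons the members took 3.39 (3.33 to 3.45) of every 1000 detections in the control and 6.77 (6.72 to 6.82) in the deficient library, a 2.00-fold difference (1.96 to 2.03). In proliferating tanycytes they took 3.23 (3.04 to 3.43) and 7.62 (7.54 to 7.69), a 2.36-fold difference (2.22 to 2.51). The control level there rests on 63 cells and 1036 detections in members, and 118 members had none. OPCs had 2.94 and 4.77 per 1000, a 1.62-fold difference (1.56 to 1.69). Astrocytes had 2.73 and 4.14, a 1.52-fold difference (1.46 to 1.58), and ependymal cells had 2.93 and 4.38, a 1.49-fold difference (1.43 to 1.57). Over all cells the interval of neurons did not overlap those of OPCs, astrocytes and ependymal cells, but it did overlap that of OPCs in cells under 3000 detections, as given further on.

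Members took a below-average share of detections in every control class, and an above-average share in most deficient classes. In the 4 subtypes the rule favoured members lower in control than in deficient cells, so this is a description there. The average region also lies above the median region. In control alpha2 cells the median member stood above 54.3% of all regions although the members' share was below average. Control levels ran from 2.03 per 1000 in beta2 tanycytes to 3.39 in neurons. All 9 lay below the 4.66 per 1000 that 500 regions of average level would take. In the deficient library 6 classes lay above that value, in descending order proliferating tanycytes (7.62), neurons (6.77), alpha2 (6.48), alpha1 (6.43) and beta1 tanycytes (5.84) and OPCs (4.77). The intervals of alpha2 and alpha1 cells overlapped. The interval of OPCs reached down to 4.64, so their level cannot be set apart from the average. Beta2 tanycytes (4.59), ependymal cells (4.38) and astrocytes (4.14) stayed below it, and the interval of beta2 cells, 4.53 to 4.65, ended just under it. Beta2 cells had the lowest control level of all classes and a 2.26-fold difference (2.21 to 2.32) that the rule favoured.

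**Figure D3:**
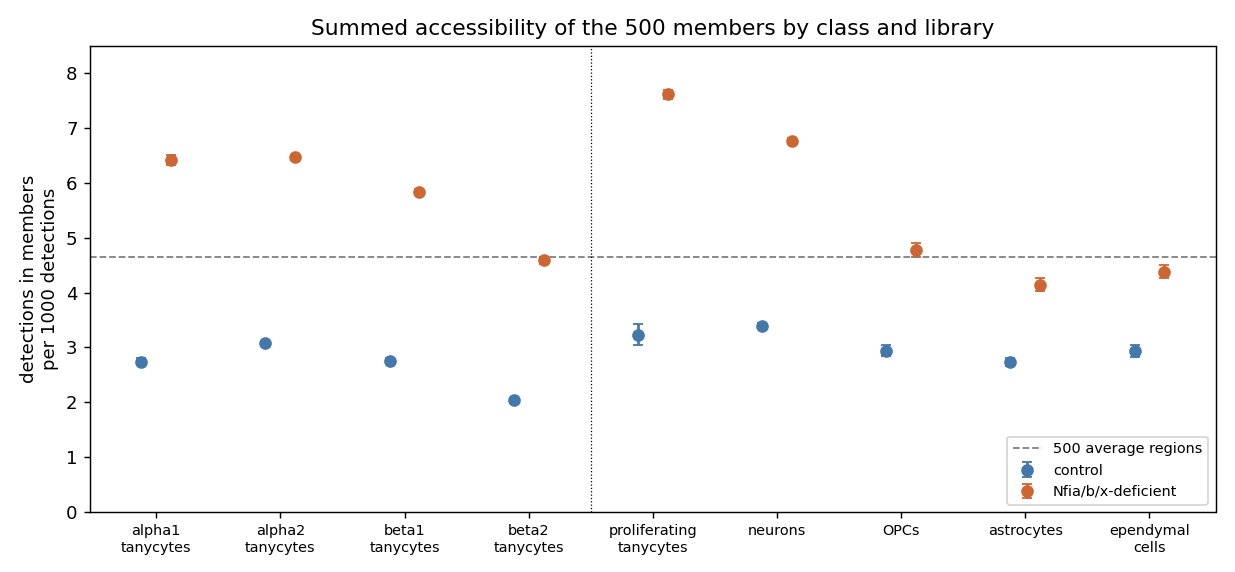
Detections in the 500 members per 1000 detections (vertical axis, from 0) in each class (horizontal axis), blue for the control and orange for the deficient library, with exact 95% Poisson intervals; the dashed line is the level of 500 average regions, 4.66. Control levels lie between 2.03 and 3.39 in all classes, and deficient levels between 4.14 in astrocytes and 7.62 in proliferating tanycytes.

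Classes of unequal depth give unequal counts, because a member with few detections can fall on either side of 0 by counting error alone. The median member was detected in 17 control and 107 deficient neurons but in 5 and 7 OPCs, 7 and 7 astrocytes and 4 and 8 ependymal cells. Cells of each class were then drawn up to 900000 detections per library, a comparison added after the data were seen. D was above 0 in 452 members in neurons (55.4% of all regions), 371 in OPCs (43.3%), 391 in astrocytes (56.5%) and 407 in ependymal cells (56.5%). The subtypes had 451 in beta2 (43.8%) to 487 in alpha1 cells (45.5%). The shares of all regions differ between classes, so these counts alone do not order the classes. The log2 ratios of the summed level were 1.03 (0.96 to 1.09) in neurons, 0.71 (0.64 to 0.78) in OPCs, 0.60 (0.52 to 0.67) in astrocytes and 0.57 (0.50 to 0.65) in ependymal cells. Neurons remained above the other 3 classes at equal total detections per class, with 128 to 244 cells drawn per class and library, so depth per cell still differed. Proliferating tanycytes were not included, since the control class has 320785 detections.

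Depth of the cells mattered little in tanycytes and more in 3 other classes. In the 4 subtypes the log2 ratio of the members' summed level was 1.09 in cells under 3000 detections, 1.13 from 3000 to 6000 and 1.07 above. In OPCs it was 0.74 (0.60 to 0.88), 0.67 and 0.73. In neurons it was 0.77 (0.71 to 0.83) in the shallowest cells and 1.05 in each of the other groups, so in the shallowest cells neurons and OPCs could not be set apart. In astrocytes it was 0.38 (0.19 to 0.57), 0.60 and 0.66, and in ependymal cells 0.34 (0.052 to 0.64), 0.52 and 0.75 (0.67 to 0.83), with 16 control ependymal cells in the shallowest group. In the deepest group the intervals of these 3 classes overlapped, with 0.64 to 0.82 in OPCs and 0.58 to 0.74 in astrocytes, so their order depended on the depth of the cells.

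Single members departed from the common pattern in classes outside the rule. The lowest and highest values given next are those among members with at least 50 detections in the class over both libraries, and members with fewer detections lay beyond some of them. Region 53592 was higher in all 4 subtypes, for example 4.12 against 8.98 CPM in alpha2 cells, and lower in neurons, where it was found in 89 of 882 control and 176 of 2520 deficient cells (23.7 and 17.9 CPM, log2 ratio -0.40, -0.78 to -0.019). In control neurons it was thus more accessible than in any other control class, and the library difference ran against that in tanycytes. Region 23227 had the lowest D in proliferating tanycytes (-0.70), from 7 of 63 control and 58 of 1033 deficient cells, with an interval of the log2 ratio that includes 0. Region 84402 had the lowest in OPCs (-0.38, 32 of 304 and 20 of 274 cells), and region 73011 in astrocytes (-0.15, 32 of 325 and 18 of 223 cells), with intervals that also include 0. At the other end, region 89750 had the highest D in proliferating tanycytes, at 145 of 1033 deficient and 0 of 63 control cells, and region 29876 the highest in OPCs, at 14.1 and 42.3 CPM.

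The overlap of the members with regions that mark a class was small in the control library and near the share that members take of all regions. Of the 500 regions most specific to a class in the control library, 3 were members for neurons (0.6% of each list), 3 for OPCs, 2 for astrocytes, 6 for ependymal cells, 6 for proliferating tanycytes, and 0 to 5 for the 4 subtypes, where members make up 0.466% of all regions. With classes compared in the deficient library, 43 of the 500 regions most specific to proliferating tanycytes were members (8.6%). The next highest counts were 8 for alpha2 tanycytes and 7 for neurons. In the control library 63 cells define the class. Of the 500 regions with the highest D in neurons, 75 were members (15.0%), in proliferating tanycytes 54, in OPCs 27, in astrocytes 18 and in ependymal cells 15.

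How D in other classes varied with a member's level in control tanycytes differed between classes. Median D in neurons was 0.52 for members under 2 CPM, 0.65 from 2 to 5, 0.64 from 5 to 10 and 0.64 from 10 to 20 CPM. In OPCs the medians were 0.40, 0.39, 0.34 and 0.51. In astrocytes they were 0.14, 0.29, 0.41 and 0.38, lowest for the members of lowest level, and in ependymal cells 0.44, 0.34, 0.23 and 0.30, highest for those. These medians rest on few counts, with 7 control and 7 deficient astrocytes and 4 and 8 ependymal cells for the median member. The value of 0.14 is the D of a member found in 2 control and 2 deficient astrocytes. The pseudocount also shrinks D at low levels, and whether these trends exceed counting error was not tested. The 6 members at 20 CPM or more had 0.36 in neurons, 0.21 in OPCs, 0.36 in astrocytes and 0.34 in ependymal cells. Across the 500 members, D in alpha2 tanycytes and in neurons had a Pearson correlation of 0.54, against 0.60 across all regions; both values share the 2 libraries and regions are not independent replicates. With the other outside classes it was 0.39 for proliferating tanycytes, 0.35 for astrocytes and 0.26 for both OPCs and ependymal cells. With the other subtypes, whose D the rule also used, it was 0.60 for beta1, 0.48 for beta2 and 0.42 for alpha1 cells. The rule limits the range of D in alpha2 cells, and counting error differs between classes. No order of the classes is therefore read from these correlations.

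In tanycytes the higher level was spread over most cells of a subtype. The rule favoured higher levels in the deficient cells of the 4 subtypes, so their values are a description and no yardstick for the other classes. Every alpha2 cell of the deficient library had at least 1 member detected, with a median of 30 members per cell, and 8 of 4306 control alpha2 cells had none, with a median of 15. Per 1000 detections of a cell, the 5th, 50th and 95th percentiles were 1.51, 2.99 and 4.70 in control and 3.30, 6.47 and 9.81 in deficient alpha2 cells. The 5th percentile of deficient cells thus lay above the control median and below the control 95th percentile, and it was above the control median in the other 3 subtypes too. It was below the control median in neurons (3.24 and 3.35), OPCs (2.45 and 2.81), astrocytes (1.57 and 2.58) and ependymal cells (1.85 and 2.81). In proliferating tanycytes, also outside the rule, it was 5.33, above the control median of 3.19 and the control 95th percentile of 4.66. The control values there rest on 63 cells. In beta2 cells the medians were 1.94 and 4.35, in neurons 3.35 and 6.49, in OPCs 2.81 and 4.55, in astrocytes 2.58 and 3.86, and in ependymal cells 2.81 and 4.16. In the deficient library 35.4% of OPCs, 39.5% of astrocytes and 46.0% of ependymal cells lay above the 95th percentile of control cells of their class, and with cells thinned to 2000 detections 29.3%, 21.8% and 26.4% did.

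**Figure D4:**
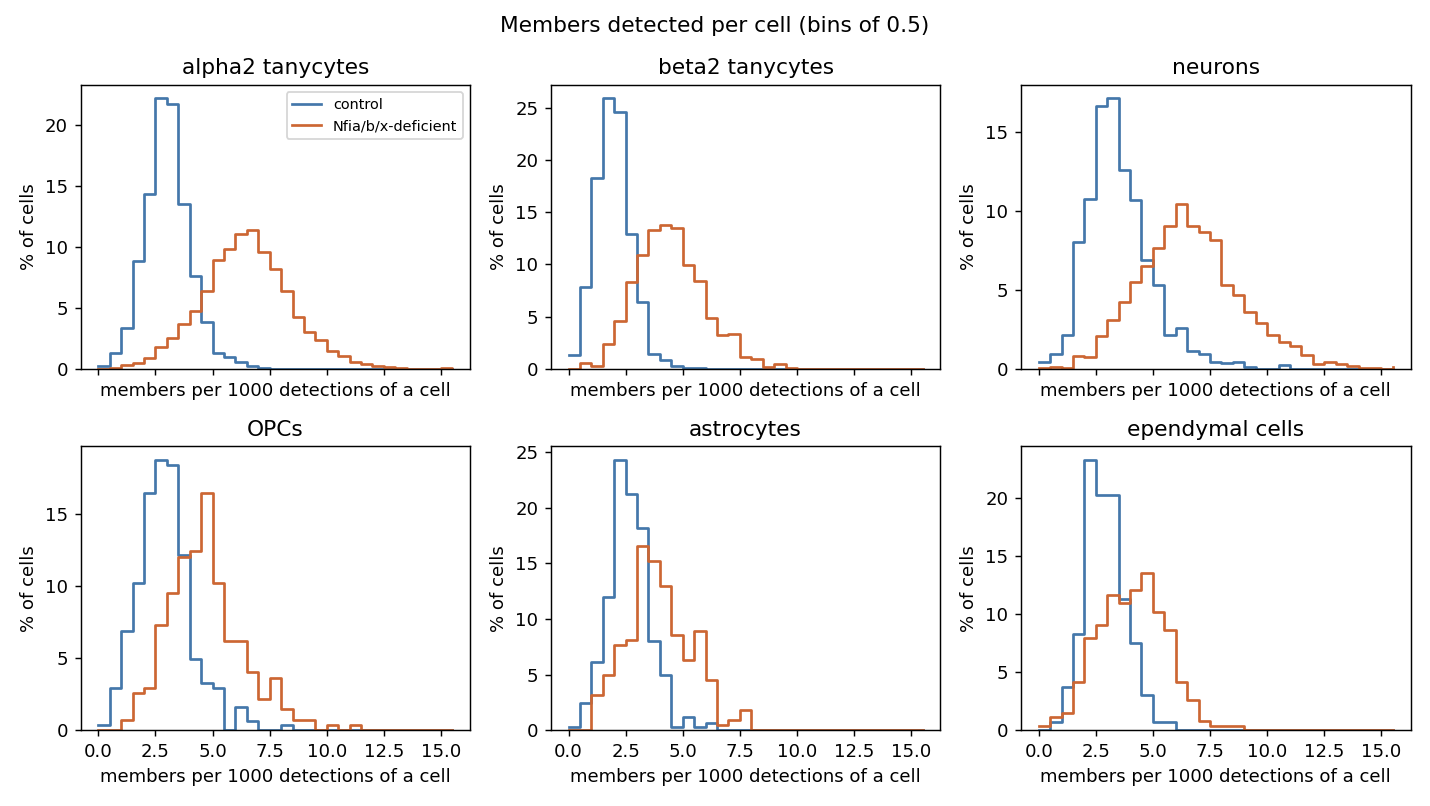
Share of cells in percent (vertical axis) by the number of members detected per 1000 detections of the cell (horizontal axis, bins of 0.5), for 6 classes, blue for control and orange for deficient cells. The distributions are shifted in every class, with medians of 2.99 and 6.47 in alpha2 tanycytes and 2.58 and 3.86 in astrocytes, and they overlap most in astrocytes and ependymal cells.

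With every cell thinned to 2000 detections, the median number of members in a cell was 6 in control and 13 in deficient alpha2 cells, 5 and 12 in alpha1, 5 and 11 in beta1, 4 and 9 in beta2 cells. It was 7 and 13 in neurons, 6 and 15 in proliferating tanycytes, 5 and 9 in OPCs, 5 and 8 in astrocytes, and 6 and 8 in ependymal cells. Thinning kept 6747 control and 8239 deficient cells of the 4 subtypes. At equal depth the deficient cells were thus higher in each of the 5 classes outside the rule. In the 4 subtypes the rule favoured this outcome, so their values are a description.

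Within the deficient library, cells with more of the lost regions had fewer of the members. The lost regions are the 500 chosen by the mirrored rule, and none is a member. In thinned cells of the 4 subtypes, the median number of members fell from 13 in deficient cells with 0 to 4 lost regions to 12, 10, 9 and 7 in cells with 5 to 9, 10 to 14, 15 to 19 and 20 or more. In control cells it was 5 or 6 at every number of lost regions from 5 up. The Pearson correlation across deficient cells was -0.45 for alpha1 (617 cells), -0.42 for alpha2 (4574 cells), -0.36 for beta1 (2133 cells) and -0.21 for beta2 (915 cells). Across control cells it lay between -0.15 and 0.068. Both lists were chosen from the difference between these libraries and share the 2000 detections of a cell, so these values are a description.

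Across deficient proliferating tanycytes the correlation was -0.21 (968 cells). It was negative too in deficient OPCs (-0.31, 229 cells), astrocytes (-0.38, 202 cells) and ependymal cells (-0.31, 235 cells), and near 0 in neurons (-0.055, 1960 cells). In neurons the median was 13 members at 0 to 4, 5 to 9 and 10 to 14 lost regions, and 9 in the 21 cells with 15 to 19. Deficient cells with as many lost regions as the median control cell of their class were 3.26% of alpha2 cells (149 of 4574), 1.79% of neurons, 11.4% of OPCs, 18.3% of ependymal cells and 22.8% of astrocytes (46 of 202). Those 149 alpha2 cells had a median of 6 members, as did control alpha2 cells, and the other deficient alpha2 cells had 13. Such ependymal cells also had 6, as did control ependymal cells with as many lost regions. Elsewhere such cells stayed above control cells with as many lost regions. The medians were 8 against 5 in alpha1, 7 against 5 in beta1 cells and in astrocytes, 7 against 6 in OPCs and 11 against 6 in neurons. Beta2 cells had 14 of this kind, too few for a median. Among deficient proliferating tanycytes 0 of 968 cells were of this kind, which allows a share of up to 0.31% by the same limit of 3 cells. The 3 classes outside the rule with the largest shares of such cells, astrocytes, ependymal cells and OPCs, were those with the smaller differences in members. The part of these cells in that difference was not tested.

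**Figure D5:**
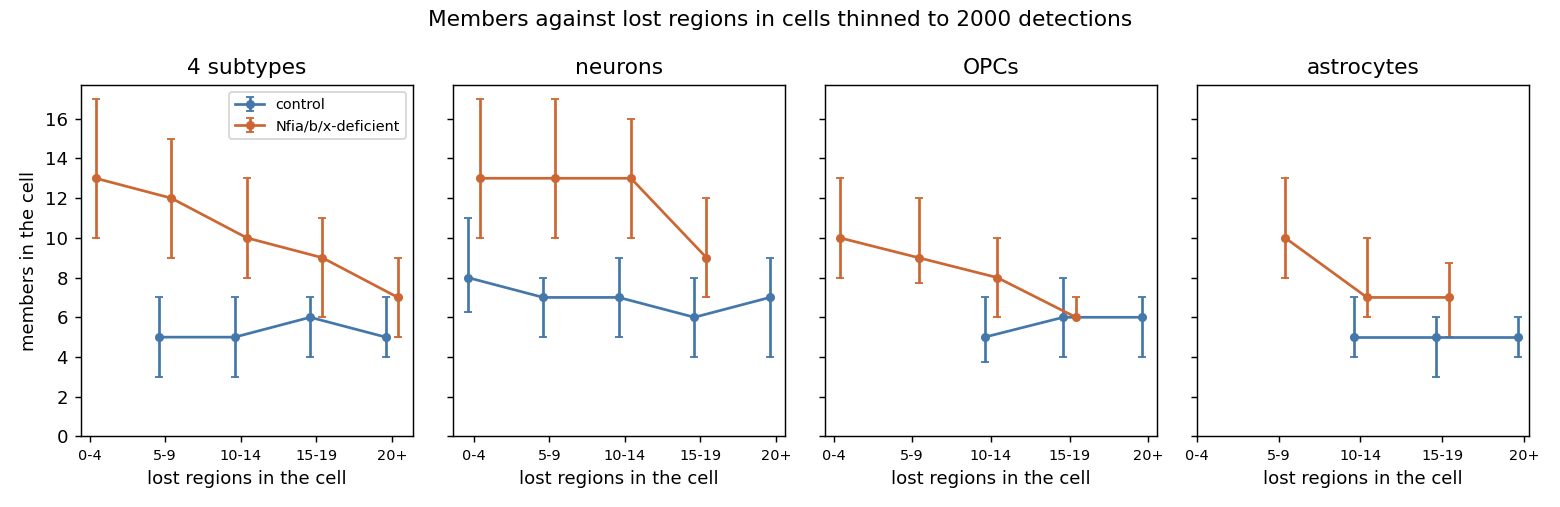
Number of members (vertical axis) by number of lost regions (horizontal axis) in cells thinned to 2000 detections, for the 4 subtypes together, neurons, OPCs and astrocytes, blue for control and orange for deficient cells; points are medians over cells and bars run from the 25th to the 75th percentile, with bins under 20 cells left out. In the deficient subtypes the median falls from 13 to 7 members, and in control cells of the subtypes it stays at 5 or 6.

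Members occurred in all parts of the matrix. With the rows cut into 10 equal blocks, each held 43 to 56 members. Of the gaps between successive members, 9 were of 1 row and 41 of at most 10 rows, and for the lost regions the counts were 4 and 40. The row after a member was a member in 1.8% of cases, and of the 10 rows after a member 0.92% were, while members are 0.466% of all rows. For the lost regions these shares were 0.8% and 0.86%. Regions 1 row from a member had a median D of 0.083 in alpha2 cells, against 0.038 for all regions, and regions 100 rows away had 0.026. The files do not state whether row order follows the genome.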

How the data were processed

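Cells were FACS-isolated and processed with Cell Ranger ATAC 1.1.0, per the labels' protocols. The submitters' processing notes name build mm10 and Cell Ranger 3.1, Signac 0.2.5, Seurat and MACS2 without roles. Region calling, cell filters, class naming and doublet treatment were not given in the sources used here. As deposited by the authors, the matrix records whether each of 107377 regions was detected in each of 22285 cells, not how many fragments it had. Its columns carry no names and were taken in the order of the deposited annotation. With class profiles from odd-numbered cells, 81.1% of control and 76.0% of deficient even-numbered cells got their own class, against 32.5% and 24.1% from class shares alone.

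Detections were summed per class and library and scaled by their total. The members and lists were chosen with earlier results of these data known. Sums have exact Poisson, shares exact Clopper-Pearson and ratios exact conditional binomial intervals at 95%. For a count of 0, the limit given is 3 counts of the total. Intervals treat detections as independent and cover counting error only. With 1 library per genotype no test was run. Named regions were the 10 highest scores, the 5 most detected, the highest and lowest D per class outside the rule (at least 50 detections) and 2 on each side of the threshold. Class-specific regions were the 500 with the highest log2(CPM + 5) difference between a class and all other cells of its library. Alternatives were pseudocounts of 1 and 20, median-of-ratios scaling, a minimum of 200 detections, cells with at least 2000 detections or thinned to 2000, the deepest 5% of cells left out, odd- and even-numbered cells, each subtype left out, and 900000 detections per class. The last of these, the lost regions per cell and the bins of control level were added after seeing the data. The calculation of D was tested on simulated data. Calculations used scipy 1.17.1, numpy 2.4.6 and pandas 2.3.3 in Python 3.11.15, and figures matplotlib 3.10.9.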

Additional observations from a re-analysis of the deposited data

Results flagged for a closer look

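Region 53592 moved in opposite directions in tanycytes and neurons. Its D was -0.324 in neurons and 0.60 to 0.71 in the 4 tanycyte subtypes. With 1 library per genotype the difference between the classes was not tested. The region was singled out as the lowest D in neurons of the members with at least 50 detections there, so a value below 0 is partly a matter of that choice.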

How the results depend on the processing

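Under the alternatives run, the number of members with D above 0 outside the rule was 452 to 488 in neurons and 414 to 472 in proliferating tanycytes. It was 358 to 407 in OPCs, 328 to 406 in astrocytes and 306 to 411 in ependymal cells. The share of all regions was not calculated for every alternative, so how far the lowest counts exceed it is not given. In a left-out subtype the counts were 438 to 493 in alpha1, 483 to 500 in alpha2, 469 to 499 in beta1 and 422 to 486 in beta2 cells. No summed ratio changed direction: it ran from 0.81 to 1.18 in neurons and from 0.40 to 0.75 in ependymal cells on the log2 scale. Which regions are members depended on the choice: 295 were shared with a pseudocount of 1, 328 with 20, 219 with cells thinned to 2000 detections, 269 with odd-numbered cells and 264 without beta2 cells, but 498 with a minimum of 200 detections. Counts of members at a D of 1 or more moved most: with pseudocounts of 1 and 20 they were 333 and 17 in proliferating tanycytes (211 with 5), 274 and 1 in neurons (89), 172 and 2 in OPCs (38), 168 and 1 in astrocytes (18) and 174 and 0 in ependymal cells (24). With thinned cells they were 70 in OPCs, 78 in astrocytes and 99 in ependymal cells. With odd and even cells they were 74 (3.67% of all regions), 45 (2.61%) and 63 (6.12%). Ependymal cells had 40 without the deepest cells and 38 without beta2 cells in the score, and astrocytes 30 without beta2 cells. At 900000 detections astrocytes had 46 (1.42% of all regions) and neurons 137 (2.94%). The share of all regions at this threshold was not calculated for the other alternatives, so nothing more is read from their counts. The median over cells of members per detection was 2.16-fold higher in the deficient subtypes, 2.40-fold in thinned cells, where medians are whole numbers of members. Median-of-ratios scaling moved all values of a class by -0.058 to 0.074 on the log2 scale and could not be fitted for proliferating tanycytes, which had 0 regions with 50 detections in each library. No paired analysis was possible because each genotype has 1 library. Depth limits single members in OPCs, astrocytes and ependymal cells, where the median member had at most 8 detections per library.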
